A study of Rattus norvegicus with 50 samples.

Results

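The comparison is between mammary glands of parous and nulliparous rats, 25 of each, which together are all 50 rats of the series. Rats were assigned to a parity by their labels, with no use of a measured value. All were female Sprague-Dawley rats, and the caudal mammary glands were taken at sacrifice on postnatal day (PND) 181. Mating of the parous rats took place at PND 97, and their litters had been born, nursed and weaned before sacrifice. Nulliparous rats were of the same age and had not been mated. Every rat had been dosed by mouth from PND 1 to PND 180, through the dam's milk until PND 28, when they were weaned, and then by gavage. The agents were diethyl phthalate (the DEP rats), methyl paraben (MPB), triclosan (TCS), all 3 chemicals together (MIX) or the olive oil vehicle alone (OIL). Only the OIL rats received no chemical. Each of the 10 groups of treatment and parity held 5 rats with 1 array each. The estrous cycle was not synchronised between rats.

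The mammary gland is a tree of epithelial ducts set in fat and fibrous stroma. In pregnancy the tree branches and forms milk-secreting alveoli, and after weaning the alveoli die, the matrix is remodelled and fat cells refill, a process called involution. Parous glands are known to keep traces of this cycle, among them more resident immune cells, fewer hormone-sensing cells and lower levels of growth factors that act through epithelium and stroma. In milk, IgA antibodies are joined into dimers by the J chain and carried through the epithelium by the polymeric immunoglobulin receptor.

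RNA was isolated with a Promega kit in 26 rats and a Zymo kit in 24, and the kits coincide with the labels' 2 batches, so kit and batch cannot be told apart. Array medians of the log2 signals ran from 6.70 to 6.91. The kits differed in 11385 of 13413 genes tested (84.9%), but each parity held the same 13 Promega and 12 Zymo rats, and within each treatment both parities held the same number of each kit (1 and 4 in DEP, 3 and 2 in the others). Signals of single rats are given on the log2 scale after the kit difference was removed. Epithelial, myoepithelial and fat markers had high signals, with medians of 9.81 for Krt8, 10.9 for Epcam, 10.9 for Krt14 and 13.0 for Adipoq. Krt5 had no named probeset. A gene passed at an adjusted p under 0.05, from a fit of all 50 rats with treatment and kit as terms.

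Parous glands had higher signals of Jchain, Pigr and several immunoglobulin variable-region segments. They had lower signals of a larger number of stromal, fat and growth factor genes. In Zymo rats alone Jchain, Pigr and the segments did not pass. In DEP rats the mean Pigr signal was 7.63 in nulliparous and 7.69 in parous rats. In all, 182 genes (1.36% of those tested) were higher in parous rats and 1082 (8.07%) were lower. Most differences were small, with a median size of 0.24 on the log2 scale among higher genes and 0.27 among lower genes. Only 29 higher genes (0.216%) and 53 lower genes (0.395%) also differed by at least 1.5-fold. The study reports that it saw no significant expression change with parity. It describes only DEP and OIL rats, and does not give the rats or the threshold of that comparison. In OIL rats 0 genes passed as higher and 1 as lower, and in DEP rats 3 and 22. Over all rats, 37 genes were higher and 58 lower at an adjusted p under 0.25 with a fold of at least 1.5. Those limits are the ones the study used for DEP effects. The counts from all treatments therefore do not test the study's report directly. Over all genes tested the median difference, parous minus nulliparous, was -0.01. In bulk tissue fewer cells of a type and less RNA per cell cannot be told apart, and this holds for every difference below.

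Among the 15 leading genes higher in parous rats, 10 were immunoglobulin variable-region (V) segments, and the others were Jchain, Pigr, Mzb1, Scd and Spt1. Jchain, the joining chain of dimeric IgA, ranged from 9.39 through a median of 10.82 to 11.74 in nulliparous rats and from 11.07 through 12.16 to 12.58 in parous rats. All 25 parous rats lay above the nulliparous median and 21 above the highest nulliparous rat, more than for any other gene tested. The difference was 1.26 ± 0.15 (SE), a fold of 2.39 (adjusted p = 1.12e-07). Pigr, the receptor that carries the IgA dimer into milk, ran from 6.74 through 7.65 to 8.08 in nulliparous rats and from 7.30 through 8.57 to 9.74 in parous rats. It was higher in 20 of 25 parous rats than in any nulliparous rat, by 1.05 ± 0.15 (adjusted p = 3.79e-06). Of the 5 parous rats below the highest nulliparous signal, 4 were DEP rats and 1 was a MIX rat.

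Mzb1, a chaperone of antibody-secreting cells, overlapped more, with 7.54, 8.86 and 11.16 as lowest, median and highest signal in nulliparous rats and 8.28, 9.51 and 11.88 in parous rats. Its difference of 0.96 ± 0.31 passed (adjusted p = 0.0363), and was lost when any 1 of 18 rats was left out. Of the 11 tested genes of plasma cells and secretory IgA, 6 were higher (54.5%, against 1.36% of all genes tested) and 1 was lower. The other higher genes were Tnfrsf17, the plasma cell survival receptor (0.49 ± 0.15), Derl3, which serves protein disposal in secretory cells (0.44 ± 0.12), and Prdm1, the transcription factor of plasma cell differentiation (0.29 ± 0.08). Sdc1, a syndecan that plasma cells and epithelium both carry, was lower by -0.25 ± 0.08, a call lost when any 1 of 24 rats was left out. Pou2af1, a B lineage coactivator, differed by 0.67 and did not pass, and neither did Xbp1 at 0.02.

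V segments were set apart as a group after their values had been seen, and segments of 1 family share sequence, so their probesets cannot be read as single genes with certainty. No gene annotated as a constant region was among those tested, and V segments do not give the class of antibody. LOC690786, the segment with the largest difference, ran from 6.69 through 9.22 to 10.67 in nulliparous rats and from 9.09 through 11.02 to 12.38 in parous rats. It was higher by 1.85 ± 0.26 (adjusted p = 3.79e-06), and 15 of 25 parous rats exceeded all nulliparous rats. On chromosome 4, where segments with Igkv (kappa light chain) names lie, 17 segments were measured. With no filter on low signals, 10 of these were higher, none was lower, and the median difference was 0.61. Without that filter 0.963% of all 18166 genes were higher and 5.70% were lower. On chromosome 6, where segments with Ighv (heavy chain) names lie, 6 of 20 were higher and 1 was lower, with a median of 0.30. On chromosome 15, where segments with Trav (T cell receptor alpha) names lie, none of 11 passed and the median was 0.26. The filter let 13, 9 and 10 of these into the other fits, of which 3, 1 and 2 passed it only through parous groups. LOC690044 and LOC691939, among the leading genes, are of that kind. The lower segment of chromosome 6, LOC691897, went the opposite way by -1.04 ± 0.27, with signals of 6.72, 8.75 and 10.16 in nulliparous rats and 5.76, 7.63 and 9.47 in parous rats. That segment did not pass within either kit alone, without a kit term or without the TCS rats.

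**Figure D1:**
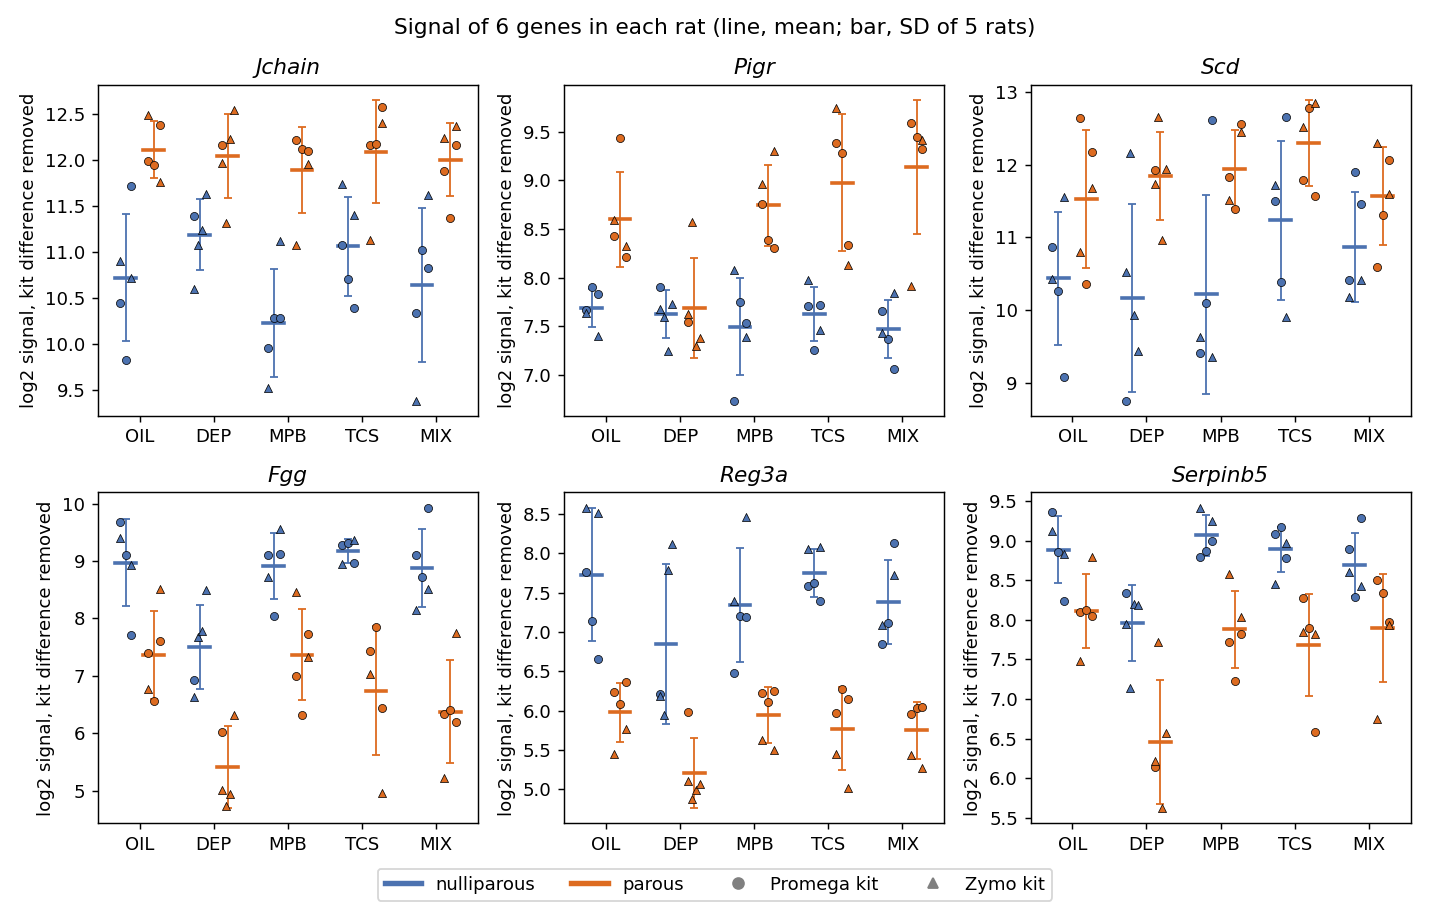
Signals of 6 genes in every rat, by treatment on the x axis and with the log2 signal after removal of the kit difference on the y axis. Blue marks nulliparous and orange parous rats, circles the Promega and triangles the Zymo kit, lines the group means and bars the SD of 5 rats. Jchain lies higher and Fgg lower in the parous group of each treatment, while the Pigr signals of both DEP groups lie close together.

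Scd, the desaturase that makes monounsaturated fatty acids, was higher by 1.25 ± 0.25 (adjusted p = 0.000703). Its signals overlapped widely, from 8.76 through 10.41 to 12.66 in nulliparous rats and from 10.35 through 11.83 to 12.85 in parous rats. Of 12 fatty acid synthesis genes 3 were higher (25%, against 1.36% of all genes tested). The others were Acaca, acetyl-CoA carboxylase (0.56 ± 0.10), and Srebf1, the transcription factor that drives this pathway (0.34 ± 0.11, lost when any 1 of 30 rats was left out). Dgat2, which makes triglyceride in the last step, was lower by -0.31 ± 0.09. Elovl6 at 0.42 and Acly at 0.22 did not pass. Spt1, a salivary protein gene, was higher by 1.05 ± 0.18, and 13 of 25 parous rats exceeded all nulliparous rats.

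C3, the central complement component, was higher by 0.81 ± 0.12 (adjusted p = 5.95e-06). Its signals ran from 8.20 through 9.02 to 9.68 in nulliparous rats and from 8.78 through 9.79 to 10.62 in parous rats, 15 of which were above the nulliparous range. Mmp12, the elastase of macrophages, was higher by 0.62 ± 0.11, and Gpnmb, a glycoprotein of lipid-laden macrophages, by 0.33 ± 0.10. Clec10a, a lectin of tissue macrophages, was lower by -0.41 ± 0.13, a call lost without any 1 of 16 rats. Mmp12 was not among the 16 macrophage genes tested, of which 12 had a negative difference (median -0.08). Beside Gpnmb and Clec10a none of the 16 passed, although between 0 and 4 were lower when each rat was left out, with a changed count for 29 rats. Outside that list, Cd14 (-0.34, lost without any 1 of 19 rats) and Cd209f (-0.87) were lower. Of the 16 genes 6.25% were lower and 6.25% higher, against 8.07% and 1.36% of all genes tested. Klrd1, the CD94 receptor of NK cells, was higher by 0.53 ± 0.11. Cldn15, a claudin that forms cation pores, was higher by only 0.24 ± 0.04, but 15 of 25 parous rats lay above all nulliparous rats.

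Fgg had the largest difference of all genes tested and was lower in parous rats. It encodes the gamma chain of fibrinogen, the clotting protein known best from liver. Its signals ran from 6.64 through 8.94 to 9.93 in nulliparous rats and from 4.73 through 6.56 to 8.51 in parous rats. All 25 parous rats lay below the nulliparous median and 13 below the lowest nulliparous rat. The difference was -2.04 ± 0.21, which is 4.10-fold lower (adjusted p = 3.56e-09). Fgb, the beta chain, differed by only -0.04 and did not pass.

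Reg3a and Reg3b encode secreted lectins that kill bacteria and that epithelia release on injury. Reg3a ran from 5.95 through 7.40 to 8.59 in nulliparous rats and from 4.87 through 5.95 to 6.37 in parous rats, all 25 below the nulliparous median. It was lower by -1.68 ± 0.16 (adjusted p = 6.38e-10), the smallest adjusted p of all genes tested. With the kit difference removed, its parous group means of 5.20 to 5.98 lay below the intensity filter of 6.32. Its nulliparous group means of 6.85 to 7.75 lay above that filter, so the parous signals of Reg3a were near the level of genes left untested. Reg3b ran from 7.62 through 9.28 to 10.05 and from 5.82 through 7.83 to 8.89, lower by -1.48 ± 0.20 (adjusted p = 1.98e-06). Serpinb5 encodes maspin, a serpin of myoepithelial cells. It was lower by -1.09 ± 0.14 (adjusted p = 9.91e-07), from 7.14 through 8.83 to 9.42 in nulliparous rats against 5.62 through 7.85 to 8.79 in parous rats.

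The other leading genes that were lower, beside LOC691897 above and Areg below, differed by between -0.97 and -0.79. Nnat, which encodes neuronatin, fell by 0.97, but its second, dimmer probeset differed by only -0.27 (unadjusted p = 0.0637). Pcdh17, a protocadherin, was lower by -0.90 ± 0.09 (adjusted p = 3.56e-09), with 17 of 25 parous rats below all nulliparous rats. Vegfd, a lymphatic growth factor, was lower by -0.88 ± 0.12, as was Tph1, the first enzyme of serotonin synthesis, by -0.88 ± 0.24. Cthrc1, secreted in matrix repair, was at -0.87, Cd209f, a lectin of myeloid cells, at -0.87, Gpc3, a glypican, at -0.86, Grik3, a kainate receptor subunit, at -0.83, and Aspn, a small leucine-rich proteoglycan, at -0.79. Of the 15 leading lower genes, 9 had all 25 parous rats below the nulliparous median, and of the 15 leading higher genes 7 had all 25 above it.

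**Figure D2:**
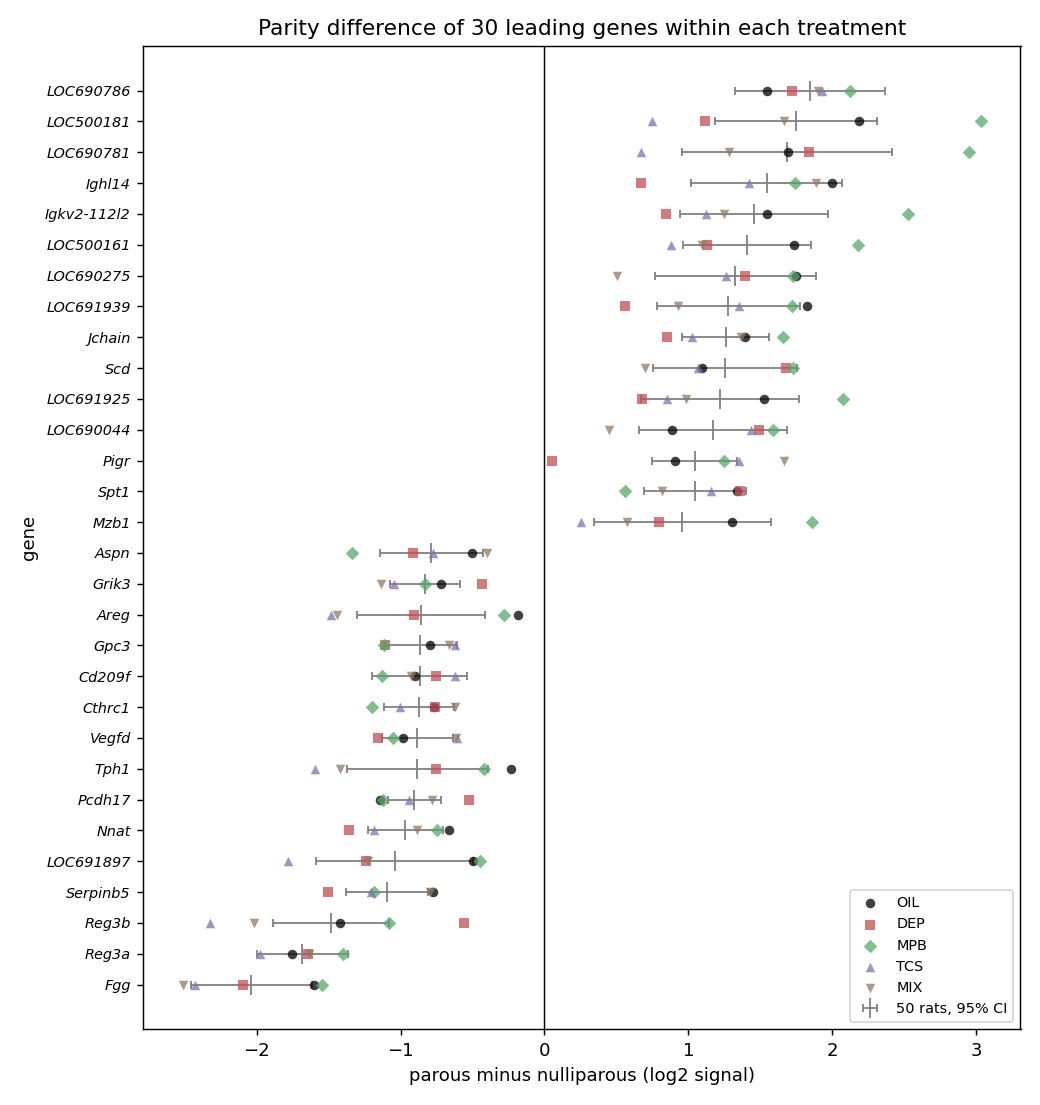
Parity difference of the 30 leading genes. The x axis is the difference in log2 signal, parous minus nulliparous, and each row is a gene. Symbols are the differences within the 5 treatments (10 rats each), and grey bars the estimate from 50 rats with its 95% confidence interval. The genes were chosen to have 1 sign in all 5 treatments, and the spread within a row shows how far the sizes vary, from 0.06 in DEP to 1.66 in MIX for Pigr.

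The promoters of 5 of these genes are shown because the immunoglobulin results turn on Jchain and Pigr, and Fgg, Reg3a and Reg3b had the largest differences among the leading lower genes. The sequences are those of RefSeq on GRCr8 and cover 250 bases before to 50 after the start of the gene. Capitals mark the motif TTCNNNGAA, the core that STAT factors such as STAT5, the mediator of prolactin, bind. It reads the same on both strands. Of 104 named genes, 72 had a promoter in the table and 9 of these held the motif. The share was 6.69% of 10911 tested genes with a promoter, 6.62% of those higher in parous rats and 5.96% of those lower, and 8.87% of all 33469 promoters. Jchain lies at chr14:19822726-19823025, Pigr at chr13:44850932-44851231, Fgg at chr2:170652833-170653132, Reg3a at chr4:112430147-112430446 and Reg3b at chr4:112419526-112419825, all on the plus strand. Only the Reg3b promoter among the 5 held a match, TTCTTGGAA, which lies before the start of the gene. Of the leading genes with a promoter, 1 of 4 higher and 2 of 12 lower genes held the motif. The higher gene was Spt1, whose promoter is not shown. A match is not a measured binding site.
Jchain: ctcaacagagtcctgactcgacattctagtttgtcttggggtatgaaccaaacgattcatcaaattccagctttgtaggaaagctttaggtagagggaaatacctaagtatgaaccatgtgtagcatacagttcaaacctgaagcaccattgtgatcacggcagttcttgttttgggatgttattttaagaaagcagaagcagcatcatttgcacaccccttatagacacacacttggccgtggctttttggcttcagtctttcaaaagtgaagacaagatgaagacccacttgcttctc
Pigr: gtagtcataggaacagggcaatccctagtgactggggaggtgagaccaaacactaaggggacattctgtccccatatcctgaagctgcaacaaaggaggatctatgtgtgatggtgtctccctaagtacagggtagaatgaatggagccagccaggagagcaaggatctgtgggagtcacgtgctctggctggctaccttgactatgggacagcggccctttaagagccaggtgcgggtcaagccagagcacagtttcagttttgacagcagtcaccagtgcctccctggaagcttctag
Fgg: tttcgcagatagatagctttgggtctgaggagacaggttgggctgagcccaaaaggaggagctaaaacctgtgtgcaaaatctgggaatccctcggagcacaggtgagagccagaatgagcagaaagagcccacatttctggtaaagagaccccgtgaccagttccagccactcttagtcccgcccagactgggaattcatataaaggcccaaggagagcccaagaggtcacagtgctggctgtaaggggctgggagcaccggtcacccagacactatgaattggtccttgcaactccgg
Reg3a: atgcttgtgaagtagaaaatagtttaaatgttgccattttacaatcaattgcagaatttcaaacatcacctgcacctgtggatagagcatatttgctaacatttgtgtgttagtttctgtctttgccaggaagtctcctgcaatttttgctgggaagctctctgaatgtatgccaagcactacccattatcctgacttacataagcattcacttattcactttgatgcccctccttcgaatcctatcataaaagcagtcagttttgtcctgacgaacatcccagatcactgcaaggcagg
Reg3b: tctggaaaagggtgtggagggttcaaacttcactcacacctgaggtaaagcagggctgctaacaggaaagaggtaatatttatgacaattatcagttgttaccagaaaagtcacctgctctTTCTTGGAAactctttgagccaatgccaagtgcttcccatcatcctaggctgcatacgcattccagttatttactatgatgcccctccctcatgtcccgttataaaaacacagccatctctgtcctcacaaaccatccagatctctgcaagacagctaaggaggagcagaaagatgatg

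Genes of fibroblasts and extracellular matrix made up the list with the largest share of lower genes. Of 28 tested, 19 were lower (67.9%, against 8.07% of all genes tested) and none was higher. All 28 differences were negative, with a median of -0.39 against -0.01 over all genes. Col1a1, a chain of type I collagen, ran from 10.60 through 11.61 to 12.42 in nulliparous rats and from 9.78 through 11.09 to 11.87 in parous rats, lower by -0.69 ± 0.16. Fbn1 and Mfap5, of the microfibrils that hold elastin, were lower by -0.78 ± 0.15 and -0.73 ± 0.15. Lox, which cross-links collagen, was lower by -0.66 ± 0.11, Postn, a matricellular protein, by -0.64 ± 0.12, and Fn1, fibronectin, by -0.53 ± 0.11. The distributions overlapped for each of these genes. Pdgfra, a surface marker of fibroblasts, differed by -0.16 and did not pass. Differences were negative for 28 of the list's genes in Promega rats and for 27 in Zymo rats. The count fell from 19 to 5 with an adipocyte score as a covariate and to 6 without a kit term.

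Enzymes that turn matrix over were mostly lower too. Of 20 metalloproteinase and inhibitor genes, 11 were lower (55%, against 8.07% of all genes tested) and 2 were higher (10%, against 1.36%). Mmp8 passed the filter only through parous groups. The lower ones included Mmp23 (-0.52 ± 0.08), Mmp14, the membrane-anchored collagenase (-0.48 ± 0.12), Mmp2, the gelatinase that Mmp14 activates (-0.33 ± 0.08), and the inhibitors Timp1 (-0.43 ± 0.10) and Timp2 (-0.24 ± 0.06). The higher ones were Mmp12 and Mmp8, the neutrophil collagenase (0.38 ± 0.12), whose call was lost when any 1 of 20 rats was left out. With the adipocyte score as a covariate 1 of the 11 lower calls was left.

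Adipocyte genes showed the same direction at smaller size. Of 15 tested 9 were lower (60%, against 8.07% of all genes tested). All 15 differences were negative in the full set and within each kit, with a median of -0.24. Aqp7, the glycerol channel of fat cells, was lower by -0.68 ± 0.13, with 12 of 25 parous rats below all nulliparous rats. Lep, the hormone leptin, was lower by -0.50 ± 0.13, Cidec, which fuses lipid droplets, by -0.38 ± 0.09, and Adipoq, the hormone adiponectin, by -0.27 ± 0.08. Lpl (-0.16) and Fabp4 (-0.18) did not pass. The 9 fell to 2 without a kit term, to 3 with an epithelial score as a covariate and to 5 with a lymphoid score. It was 5 when DEP_par_40, TCS_par_239 or OIL_par_444 was left out.

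**Figure D3:**
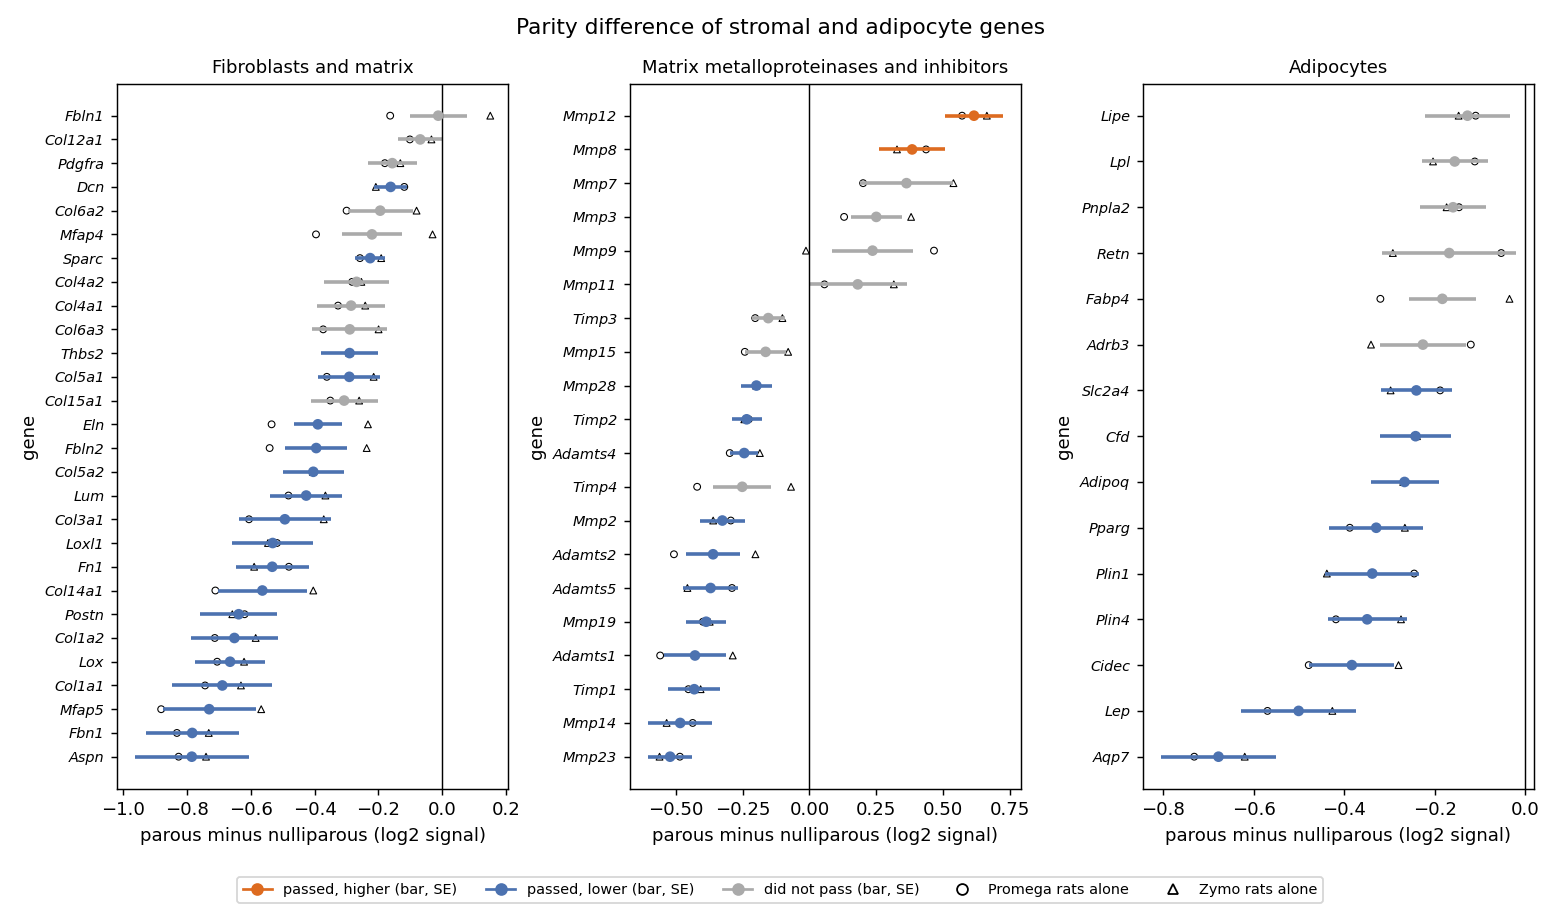
Parity difference of genes of the fibroblast, matrix protease and adipocyte lists. The x axis is the difference in log2 signal, parous minus nulliparous, filled points are the estimates from 50 rats with bars of 1 SE, blue and orange mark genes that passed, and open circles and triangles are the estimates from Promega and Zymo rats alone. All 28 fibroblast and all 15 adipocyte estimates from 50 rats lie left of 0, whereas the protease list holds Mmp12 and Mmp8 on the right.

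Genes of growth factor pathways, ligands and inhibitors alike, were lower where they differed, and signalling itself was not measured. The lower shares were 35.3% in the IGF list, 40.9% in the Wnt list and 37.5% in the TGF-beta list, against 8.07% of all genes tested. Of 17 genes of the growth hormone and IGF axis 6 were lower and none was higher: Igf2 (-0.62 ± 0.13), Igfbp6 (-0.42 ± 0.12), Igfbp4 (-0.38 ± 0.10), Ghr, the growth hormone receptor (-0.34 ± 0.10), Igf1 (-0.31) and Igfbp7 (-0.12). Igf2 ran from 6.76 through 7.24 to 9.11 in nulliparous rats and from 6.20 through 6.92 to 7.36 in parous rats. Stat5a (0.05) and Igf1r (-0.06), the pathway's signal transducer and receptor, did not pass. Of 22 Wnt genes 9 were lower and none was higher. Lgr5, the R-spondin receptor that marks stem cells in several epithelia, was lower by -0.49 ± 0.09, with all 25 parous rats below the nulliparous median. The ligands Wnt2 (-0.43 ± 0.12), Wnt2b (-0.27), Wnt5a (-0.23) and Wnt5b (-0.16), the inhibitors Sfrp2 (-0.41 ± 0.08), Apcdd1 (-0.37 ± 0.09) and Wif1 (-0.18), and Rspo1 (-0.21 ± 0.06) were also lower. Axin2 (0.09), a common readout of Wnt signalling, and Wnt4 (-0.13), the ligand that progesterone induces, did not pass.

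Of 24 TGF-beta family genes 9 were lower and none was higher, with Ltbp2 (-0.53 ± 0.10) and Ltbp1 (-0.40 ± 0.08), which store latent TGF-beta in matrix, Gdf10 (-0.41 ± 0.10) and Bmp4 (-0.32 ± 0.06) the largest. The ligand Tgfb1 (0.07) and the receptor Tgfbr1 (0.19) did not pass. Bmp4 differed by between -0.36 and -0.28 in each of the 5 treatments. With the epithelial score as a covariate the lower genes fell from 6 to 2 in the IGF list, from 9 to 3 in the Wnt list and from 9 to 4 in the TGF-beta list. With a fibroblast score, chosen after seeing the data, Igf2, Igfbp6, Igfbp4, Ghr, Wnt2, Sfrp2, Apcdd1 and Rspo1 did not pass. Ltbp2, Ltbp1, Gdf10 and Bmp4 did not pass with it either, while Lgr5 did.

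Hormone-sensing luminal cells carry the estrogen and progesterone receptors and signal to their neighbours through ligands such as amphiregulin. Of 13 genes of these cells 3 were lower (23.1%, against 8.07% of all genes tested). Areg, amphiregulin, ran from 7.38 through 9.93 to 10.63 in nulliparous rats and from 6.89 through 8.47 to 10.49 in parous rats, lower by -0.86 ± 0.22 (adjusted p = 0.00941). Esr1, the estrogen receptor, was lower by -0.40 ± 0.10, and Tph1 is given above. Pgr, the progesterone receptor, differed by -0.67 ± 0.27 but did not pass (adjusted p = 0.11), and Prlr (-0.22) and Foxa1 (-0.13) did not pass either. Areg and Tph1 differed little in OIL rats (-0.18 and -0.23) and MPB rats (-0.28 and -0.42), and by -1.48 and -1.60 in TCS rats and -1.44 and -1.42 in MIX rats. Their difference between treatments did not pass (limma F test, adjusted p = 0.956 for each). Neither gene passed without the TCS rats, without the MIX rats or within either kit alone. Esr1 did not pass with the epithelial score as a covariate (-0.24, adjusted p = 0.0941).

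General epithelial genes were slightly lower, with all 19 differences negative, a median of -0.20 and 3 that passed: Fxyd3 (-0.53 ± 0.12), Krt19 (-0.36 ± 0.10) and Krt7 (-0.35 ± 0.11, lost without any 1 of 14 rats). The 3 became 5 without DEP_par_38, TCS_par_237 or TCS_par_240 and 6 without MIX_par_338. Of the general epithelial genes 15.8% were lower, against 8.07% of all genes tested. Of 11 basal genes 1 was lower (9.09%), near the share of all genes. Of 13 genes of luminal progenitor and alveolar cells 4 were lower (30.8%). The latter count ran from 1 to 4 when each rat was left out and moved by over 1.5 times for 27 of the 50 rats. None of 15 milk protein and lactation genes passed, and their median was -0.01. Csn2, beta-casein, ran from 11.5 through 13.4 to 13.7 in nulliparous rats and from 11.8 through 13.6 to 13.8 in parous rats. Lalba, alpha-lactalbumin, differed by -0.20 ± 0.07 (adjusted p = 0.0600) and Wap by 0.21 ± 0.31. With the epithelial score as a covariate 5 of the 15 milk genes were higher. Other lists with no gene that passed were those of the cell cycle (23 tested, median 0.31), endothelium, skeletal muscle, MHC class II, interferon response, mast cells, cholesterol synthesis, Notch, p53 targets, skin keratinocytes, lymph node stroma, endoplasmic reticulum chaperones and ribosomal proteins.

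**Figure D4:**
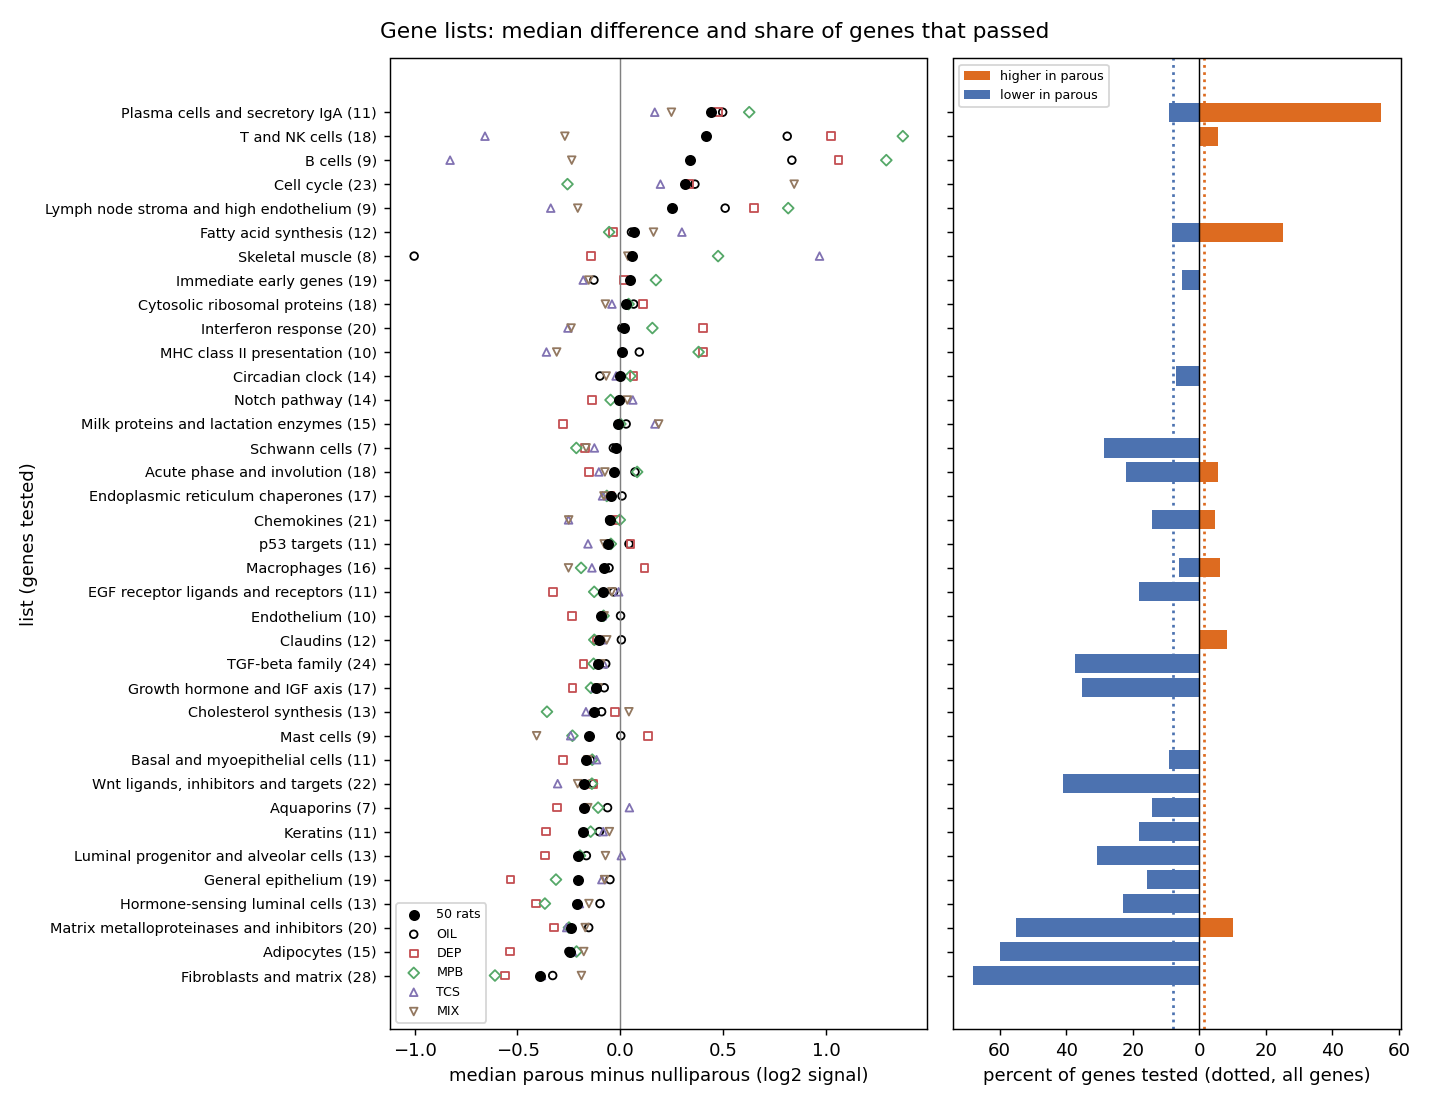
Gene lists with at least 5 genes tested. Left, the median parity difference of each list on the x axis (log2 signal, parous minus nulliparous) in 50 rats (filled) and within each treatment (open). Right, the percent of tested genes that were higher (orange) or lower (blue) in parous rats, with dotted lines at 1.36% and 8.07%, the shares over all genes tested. The fibroblast list lies lowest, and the T and NK cell list and the B cell list change sign between treatments.

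Some samples held much more lymphoid tissue than others. A lymphoid score, the mean of centred signals of T and NK cell and B cell genes, ran from -1.31 through a median of -0.80 to 1.55 in nulliparous rats and from -1.32 through -0.58 to 2.14 in parous rats, and 10 and 12 rats were above 0. Of 18 T and NK cell genes only Klrd1 was higher, although 17 differences were positive (median 0.42), and none of 9 B cell genes passed (median 0.34). The T and NK cell median was 0.81 in OIL, 1.03 in DEP and 1.37 in MPB rats, but -0.66 in TCS and -0.27 in MIX rats. Jchain differed by 1.39 in OIL, 0.85 in DEP, 1.66 in MPB, 1.03 in TCS and 1.36 in MIX rats, where the like sign was a condition for the leading genes and is no result. With the lymphoid score as a covariate, Jchain was higher by 1.13, Pigr by 1.11, Mzb1 by 0.59 and LOC690786 by 1.64, and all of these passed. Of the 11 plasma cell and IgA genes, 6 were higher in that fit, but 2 were with the epithelial, the adipocyte or the fibroblast score, 2 without a kit term, the OIL rats or the MPB rats, and 0 in Zymo rats alone. Mzb1 and Tnfrsf17 did not pass with any of those 3 scores, while Jchain, Pigr and LOC690786 passed with each. The 15 V segments that were higher among those past the filter became 11 with the epithelial, 6 with the adipocyte and 4 with the fibroblast score, and 0 in Zymo rats. They were 10 of 13 tested on chromosome 4 and 5 of 9 on chromosome 6, against 1.36% of all genes tested. Of the 15, 7 on chromosome 4 and 4 on chromosome 6 passed the filter through both parities, and the rest only through parous groups.

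**Figure D5:**
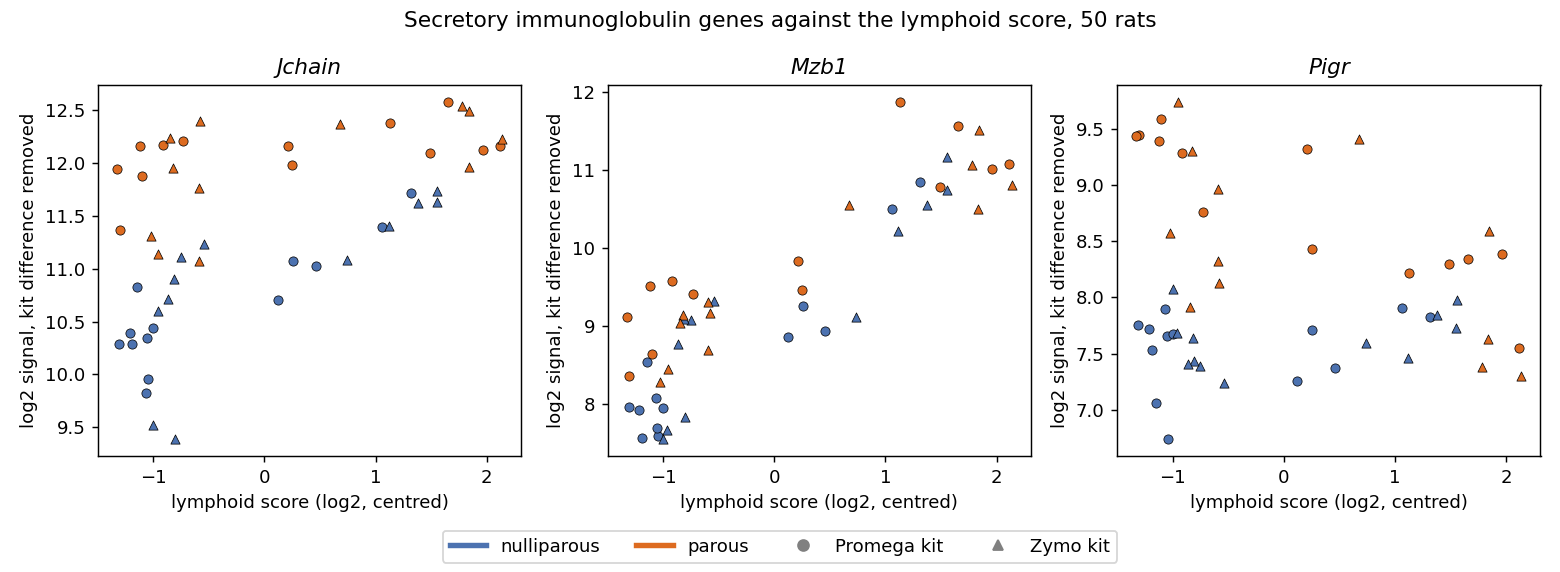
Signals of Jchain, Mzb1 and Pigr in 50 rats (y axis, log2 signal with the kit difference removed) against the lymphoid score (x axis, log2 scale, centred on 0). Orange is parous, blue nulliparous, and circles and triangles are the Promega and Zymo kits. Scores run from -1.32 to 2.14, Mzb1 is high in the rats with high scores in both parities, and for Jchain 21 parous rats lie above the highest nulliparous rat.

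Other scores describe what the samples held. The epithelial score ranged from -0.88 to 0.49 in nulliparous rats and from -1.37 to 0.66 in parous rats, and the fibroblast score from -0.37 to 0.63 and from -0.88 to 0.30. The adipocyte score ran from -0.35 to 0.64 and from -0.78 to 0.51. A skeletal muscle score above 3 marked 4 rats, 2 of each parity. Without them, a setting chosen after seeing the data, 144 genes were higher and 922 were lower. With the epithelial score as a covariate 216 genes were higher and 478 lower, and with the lymphoid score 224 and 871. With the adipocyte score 349 genes were lower, and with the fibroblast score, also chosen after seeing the data, 121 were higher and 164 lower.

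Directions within treatments came from 5 separate sets of 10 rats. Of the 1264 genes that passed in 50 rats, 1118 (88.4%) had the same sign in all 5 treatments, compared with 20.4% of all genes tested. This share describes genes that the same rats chose, so each treatment was also left out in turn. Of the genes that passed in the other 40 rats, 738 of 765 (96.5%) kept their sign in OIL rats, 664 of 747 (88.9%) in DEP, 465 of 479 (97.1%) in MPB, 932 of 1061 (87.8%) in TCS and 1009 of 1195 (84.4%) in MIX rats. For higher genes alone the shares were 92.0%, 79.8%, 91.3%, 71.4% and 78.9%, and for lower genes 97.1%, 90.6%, 98.0%, 90.9% and 85.3%. Over all genes the matching shares were 70.0%, 64.7%, 69.1%, 57.3% and 55.6%.

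Within a single treatment few genes passed. In OIL rats none was higher and only Pcdh17 was lower (0.00746% of genes). In MPB rats Jchain and LOC500181 were higher (0.0149%) and Pcdh17, Ptgs1 and Sez6 were lower (0.0224%). In TCS rats Fgg, Reg3a, Reg3b and Sez6 were lower (0.0298%). In MIX rats Pigr was higher and Fgg was lower (0.00746% each). In DEP rats Haao, Narf and Sytl1 were higher (0.0224%) and 22 genes were lower (0.164%), among them Fgg, Reg3a, Serpinb5 and Nnat. Genes named here outside the leading sets were chosen after their values were seen. The DEP counts rose to 566 and 904 without the rat labelled DEP_par_38, whose lymphoid score was -1.02 while the other DEP parous rats were between 1.78 and 2.14.

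The parity difference itself was compared between treatments with a limma F test. No gene passed in limma, and 526 (3.92%) had an unadjusted p under 0.05. Neither did a gene pass when each chemical was set against OIL. The smallest unadjusted values of that F test were 0.000204 for Lmntd2, 0.000497 for Tff3, 0.000627 for Bbx, 0.00076 for Car1 and 0.000854 for Cadm4, and each was 0.956 after adjustment. Tff3, a trefoil peptide of mucous epithelia, differed by -0.96 in DEP rats and by between -0.13 and 0.26 in the other treatments. For Pigr the differences were 0.91 in OIL, 0.06 in DEP, 1.25 in MPB, 1.35 in TCS and 1.66 in MIX rats (unadjusted p = 0.00347, adjusted p = 0.956). Its signals in the 5 DEP parous rats were 7.30, 7.38, 7.55, 7.63 and 8.57, of which the highest was that of DEP_par_38, and the DEP nulliparous rats ran from 7.24 through 7.68 to 7.91. Without that rat the Pigr difference in DEP was -0.17. For Reg3b the DEP difference was -0.56, against -1.08 to -2.32 in the other treatments (limma F test, adjusted p = 0.956). The signal of DEP_par_38 was 5.82 while the other DEP parous rats were between 8.20 and 8.89, and without it the Reg3b difference in DEP was -0.00261.

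Of the genes that passed with a sign that was not the same in all 5 treatments, Fmol had the largest difference, at -1.75 ± 0.46. It was lower by -3.02 in TCS, -2.78 in MIX, -1.77 in OIL and -1.29 in DEP rats and differed by 0.12 in MPB rats. Fmol did not pass within either kit alone, without the TCS or the MIX rats, or with the adipocyte or fibroblast score. Mcpt9, a mast cell protease, was higher by 0.70 ± 0.15 overall and by 0.73 to 1.00 in 4 treatments but differed by -0.02 in DEP rats. Mast cell genes as a list did not follow it, since none of 9 passed and Cpa3, their carboxypeptidase, differed by -0.43 ± 0.23. Igsf10 (-0.55), Adam12 (-0.52) and LOC362382 (0.52, lost without any 1 of 11 rats) completed this set. LOC362382 is a V segment that passed the intensity filter only through parous groups.

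In Promega rats alone 94 genes were higher (0.701%) and 450 were lower (3.35%), and in Zymo rats 7 (0.0522%) and 26 (0.194%). Of the 544 genes from Promega rats, 518 (95.2%) had the same sign in Zymo rats, as did all 33 genes from Zymo rats in Promega rats, compared with 69.2% of all genes. All 30 leading genes had the same sign in both kits, 26 passed in Promega rats and 9 in Zymo rats. These genes were chosen in the same rats, so their like sign is no separate result. Fgg differed by -1.98 and -2.10, Reg3a by -1.05 and -2.37, Jchain by 1.46 and 1.04 (adjusted p = 0.0809 in Zymo rats) and Pigr by 1.26 and 0.82 (adjusted p = 0.109 in Zymo rats). No gene passed for a parity difference that varied with the kit, and 474 (3.53%) had an unadjusted p under 0.05.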

How the data were processed

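Per the labels and the study's methods, RNA was hybridised to GeneChip Rat Gene 2.0 ST arrays, and the authors summarised the intensities in Affymetrix Expression Console, whose version is not given, by robust multi-array averaging. The deposited values are log2 signals. The study describes a ComBat adjustment for the RNA kit in R 3.0.2, but the deposited log2 values still differed between kits, so the kit was fitted as a term. The genome build of the probesets is not given in the sources used here. Arrays have no reads, so no depth is given and the number of rats sets the precision.

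Of 36685 probesets, 18511 had 1 gene symbol in the platform annotation, 575 several and 17599 none. The probeset of highest mean was kept for each of 18166 genes (291 had several). Genes whose mean exceeded 6.32, the 30th percentile of named-gene values, in at least 1 group were tested, which left 13413 and dropped 4753. Of those tested, 152 passed the filter only through parous and 146 only through nulliparous groups. Fits used limma 3.58.1 (lmFit, eBayes) in R 4.3.3 with Benjamini-Hochberg adjustment over all tested genes. The fit to 50 rats held parity, treatment and kit. Within-treatment differences and the interaction came from 10 group means with kit. Each rat is 1 animal and siblings were absent within a group. Any pair of arrays correlated at 0.851 to 0.993 and differed by a root mean square of at least 0.256, so none was counted as a duplicate. The code was tested on simulated data.

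The members, gene lists and tests were chosen with earlier results of these data known, so list counts carry no test and are set beside those of all genes. Genes were named by rule: the 15 largest differences in each direction among genes that passed with 1 sign in all 5 treatments, up to 4 genes of each of 39 lists (or the brightest where none passed), the 5 smallest interaction p values and the 5 largest differences that passed with mixed signs. Genes named outside it, such as further list members, serve as values only. Scores are means of centred signals over a list. Alternatives covered the kit and treatment terms, filters, thresholds, probesets, normalisation, weights, tissue scores and leaving out rats or treatments. ComBat was not run here, and a location-and-scale adjustment per kit stood in for it. Figures used matplotlib.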

Additional observations from a re-analysis of the deposited data

Results flagged for a closer look

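Within the 10 groups of 5 rats, 150 sets of values (10 leading genes and 5 tissue scores) were searched for a rat that stood apart from the other 4, and 12 were found, where chance gives about 1 in 20. For LOC690781 the signal of OIL_null_429 was 10.7 while the other 4 rats were between 6.32 and 7.20. For Reg3a DEP_par_46 was at 5.99 (others 4.87 to 5.10), for Reg3b DEP_par_38 at 5.82 (others 8.20 to 8.89) and for Serpinb5 TCS_par_239 at 6.59 (others 7.82 to 8.27). DEP_par_46 is the only Promega rat of its group.

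The lymphoid score set apart DEP_par_38 at -1.02 (others 1.78 to 2.14), OIL_null_429 at 1.31 (others -1.06 to -0.814) and TCS_par_239 at 1.65 (others -1.12 to -0.58). The muscle score set apart DEP_null_27 at 4.23 (others -0.625 to -0.388) and DEP_par_41 at 3.62 (others -0.654 to -0.167). The epithelial score set apart DEP_null_28 at -0.881 (others -0.454 to -0.290) and MIX_par_339 at -0.736 (others 0.171 to 0.471), and the fibroblast score OIL_par_441 at 0.295 (others -0.286 to -0.136).

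Outside the genes reported, 9434 probesets with several or no gene symbol were tested in the same fit, and 291 differed by parity, of which 160 (1.70% of those tested) were higher in parous rats and the rest (1.39%) were lower.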

How the results depend on the processing

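The main counts were 182 genes higher and 1082 lower in parous rats. They were 33 and 188 without a kit term, 94 and 450 in Promega rats, 7 and 26 in Zymo rats, 84 and 538 in the more variable genes, 37 and 58 at an adjusted p under 0.25 with a fold of at least 1.5, 29 and 53 at 0.05 with that fold, and 1 and 1 in OIL rats alone. Without the OIL rats they were 100 and 665, without DEP 119 and 628, and without MPB 69 and 410. Array weights gave 310 higher genes, and the epithelial and adipocyte scores as covariates gave 478 and 349 lower genes. Added after seeing the data, the fibroblast score gave 121 and 164, and the lymphoid and epithelial scores together 326 higher genes. Leaving out each rat gave 149 to 241 higher and 842 to 1321 lower genes. The other settings stayed within 1.5 times of the main counts.

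In fits of 10 rats alone, OIL gave 1 higher, DEP 0 higher and 0 lower, MPB 1 higher, TCS 1 lower and MIX 0 higher and 0 lower. Leaving out each rat, the ranges of higher and lower genes were 0 to 0 and 0 to 2 in OIL, 0 to 566 and 2 to 904 in DEP, 0 to 18 and 0 to 48 in MPB, 0 to 6 and 0 to 5 in TCS, and 0 to 2 and 0 to 2 in MIX. The extremes came without DEP_par_38 and without MPB_par_143.

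Of 85 named genes that passed, 75 passed whichever rat was left out, and 10 did not (Aldh1a3, Ccl5, Cd14, Clec10a, Krt7, LOC362382, Mzb1, Npas2, Plet1 and Srebf1). Directions turned for Npas2 in OIL rats alone (0.0549) and, with the fibroblast score, for Col1a1 (0.0283), Igfbp4 (0.0198) and Igsf10 (0.0759), none past the threshold. Col1a1 is itself part of that score. No paired analysis was made, because parous and nulliparous rats are different animals and the labels used here give no litter or cage.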
